A study of Mus musculus with 157 samples.

Results

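The mRNAs of 5 caspases (Casp2, Casp8, Casp9, Casp6 and Casp1), of the caspase activator Apaf1 and of the inhibitor of apoptosis proteins Xiap and Birc2 were followed along polysome gradients of mouse B cells after DNA damage. The 8 genes were chosen by symbol, and all 8 were found among the 19600 genes counted. Splenic B cells of young adult C57BL/6Babr mice, wild type as far as the labels state, were isolated with a B cell isolation kit and cultured in lipopolysaccharide (LPS, a bacterial mitogen for B cells) at 10 µg/ml. The LPS group had 48 h of LPS alone. The LPS+ET group had 48 h of LPS and then 20 µM etoposide for 4 h, a topoisomerase II poison that leaves double-strand breaks. In the LPS+ET+KU group, KU55933, an inhibitor of the DNA damage kinase ATM, was added at 10 µM after 47 h of LPS and 1 h before etoposide. All cultures received cycloheximide (100 µg/ml, 3 min), which holds ribosomes on mRNA, before cytoplasmic extracts were spread over sucrose gradients. Each group had 4 gradients, named here by a tag in the column names (LUL15, LUL16, LUL17 and LUL18). The tag was taken here to mark a library pool, and each pool held 1 gradient of every group. Per gradient, 13 fractions were sequenced from the 3′ end: monosomes (fractions 4 to 7), light polysomes (8 to 10) and heavy polysomes (11 to 16).

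The 156 single-fraction libraries held 14724 to 4170688 counts (median 811932), and the 12 gradients 6404957 to 21449781. The LPS+ET gradient LUL16 stood apart, with 30.4% of its counts in heavy polysomes against 60.5% to 68.2% in the other LPS+ET gradients, 52.3% to 62.4% in LPS and 37.6% to 55.5% in LPS+ET+KU. Equal RNA concentrations went into the libraries, so a library total does not measure the mRNA of a fraction. Cdkn1a, a p53 target that blocks the cell cycle, averaged 28.4 CPM (counts scaled to a common library total) in LPS, 705 CPM with etoposide and 648 CPM with etoposide and KU55933. Trp53, which encodes p53, averaged 302, 420 and 292 CPM in the same order. The Cdkn1a difference of LPS+ET from LPS was 4.64 on the log2 scale (edgeR, adjusted p = 5.28e-07), and the Trp53 difference of 0.47 did not pass the test (adjusted p = 0.148). Of the B cell markers, 6 of 6 were detected and summed to 2148 to 2944 CPM in LPS, 1398 to 2082 in LPS+ET and 1604 to 2526 in LPS+ET+KU. The 4 T cell markers found summed to at most 2.31 CPM in any gradient. The 8 myeloid markers summed to 36.9 to 97.3 CPM in LPS, 49.5 to 167 in LPS+ET and 34.5 to 131 in LPS+ET+KU, and 2 of them, Cd14 and Fcgr3, were higher in LPS+ET+KU than in LPS. Of the B cell markers, Cd22 was lower in both etoposide groups (log2 differences from LPS -2.12 and -1.82). Their part in the results below was not tested.

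Caspases are cysteine proteases made as inactive precursors. Initiator caspases are switched on in large complexes: Apaf1 binds cytochrome c released from mitochondria and assembles the apoptosome that activates caspase-9, death receptors recruit caspase-8, and the PIDDosome activates caspase-2. Executioner caspases then cleave cellular proteins, inflammatory caspases such as caspase-1 mature cytokines in the inflammasome, and inhibitor of apoptosis proteins (IAPs) hold active caspases in check. B lymphocytes are known to be sensitive to apoptosis after DNA damage.

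Every value below is a count of reads that end at a poly(A) site, so the last 30 bases before the main counted site of each member are shown where a transcript of the annotation (GENCODE, GRCm38) reaches it. Capitals mark the hexamer AATAAA, the canonical poly(A) signal, at its place nearest the site. Its variant ATTAAA was searched too, both in the sense of the mRNA. In Birc2 another AATAAA overlaps the marked one on its upstream side and is not marked. Of 58793 protein-coding transcripts of that annotation, 35.5% hold AATAAA in their last 30 bases and a further 8.59% hold ATTAAA. The sites shown lie in untranslated exons, except that of Xiap, whose sequence ends with the transcript, 8 bases before the site. The 2 sites shown for Apaf1 together carry most of its counts.
Casp2: tgccaAATAAAtgttgatacttattactga
Casp8: acatttctaaatataacctgtatactatca
Casp9: accaaaAATAAAgctgtgattgttgaaggc
Casp6: ttttcgcgtAATAAAatgtctaagaactca
Apaf1, end of the gene: aaAATAAAattactgaaatttttggaaaaa
Apaf1, upstream site: AATAAAtcatgcttatttgcactctttaaa
Xiap: aagacttattcAATAAAgcactattcttta
Birc2: tatataataAATAAAtctttttaaaaagtg

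Casp2 (ENSMUSG00000029863) lies on the plus strand of chr6:42264985-42282508 and was counted at a single site at its last base, with 11370 counts in all. Casp8 (ENSMUSG00000026029, chr1:58795374-58847503, plus strand) had 25481 counts at position 58847008, and neither hexamer lies in the 30 bases shown. Casp9 (ENSMUSG00000028914, chr4:141793612-141815976, plus strand) had 2084 counts, 85.9% of them at position 141815974 and 14.1% at 141814342. Casp6 (ENSMUSG00000027997, chr3:129901425-129914103, plus strand) had 7129 counts at position 129913950. Casp1 (ENSMUSG00000025888, chr9:5298517-5307265, plus strand) had 6919 counts at position 5307288, which is 23 bases past its annotated end, and no sequence is shown for it. Apaf1 (ENSMUSG00000019979, chr10:90989311-91082770, minus strand) had the fewest counts, 2044, of which 52.8% lay at position 90989313 and 36.7% at 90990978. The other 3 Apaf1 sites were far smaller, at 4.26%, 3.38% and 2.84%, and 1 of them lies in an intron and 1 outside annotated transcripts. Xiap (ENSMUSG00000025860, chrX:42059679-42109656, plus strand) had 5367 counts, 91.1% of them at position 42109664, 8 bases past the annotated end. Birc2 (ENSMUSG00000057367, chr9:7818236-7835255, minus strand) had 10227 counts at position 7818228. A read stands for one transcript end, so values were not divided by gene length.

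The level of ribosome-associated mRNA differed widely among the members in LPS. It was taken as the counts summed over fractions 4 to 16 of a gradient and then scaled to CPM. Casp8 was the most abundant at 204 ± 62.5 CPM (SD, n = 4), above 93.2% of the 12755 genes tested, and Casp2 followed at 82.8 ± 4.46 CPM. Birc2, at 55.6 ± 7.96 CPM, and Casp1, at 53.2 ± 5.64 CPM, overlapped each other. Casp6 (34.9 ± 8.85 CPM) and Xiap (32.5 ± 7.69 CPM) overlapped as well. Casp9 was at 14.9 ± 2.64 CPM, close to the median gene at 14.1 CPM, and Apaf1 was the lowest at 6.99 ± 1.04 CPM, above 37.8% of the genes. In LPS+ET, Apaf1, at 21.6 ± 2.17 CPM, lay above Casp9, at 9.29 ± 2.39 CPM, in 4 of 4 gradients.

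**Figure D1:**
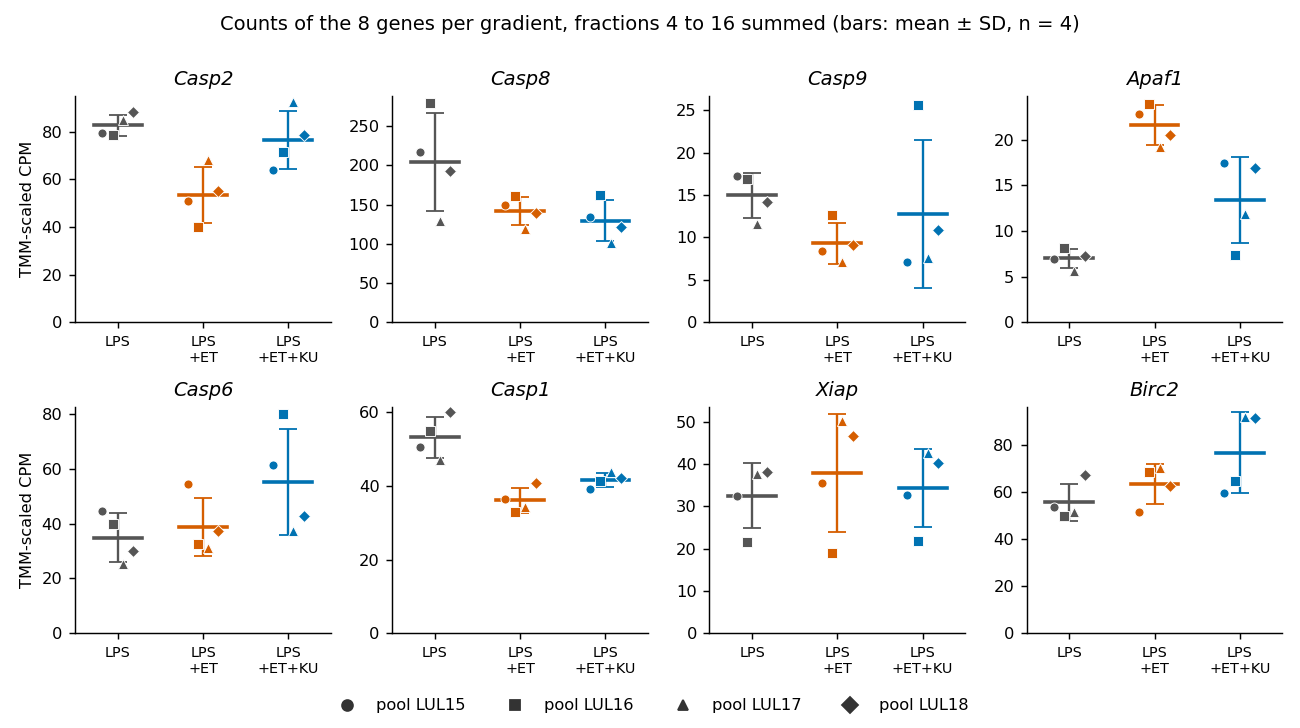
Level of the 8 mRNAs over fractions 4 to 16 (CPM, linear axis from 0, a scale per gene), 1 point per gradient with a shape per pool, 4 gradients in each of LPS, LPS+ET and LPS+ET+KU, with bars for the mean and SD. The 4 Apaf1 points of LPS+ET lie above all LPS points, and those of Casp2 and Casp1 lie below.

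To find how these levels differed after etoposide, LPS+ET was compared with LPS. No group is labelled as kept for 4 h more without etoposide or as given a vehicle. Time in culture therefore cannot be told apart from etoposide in comparisons with LPS. Apaf1 rose and no other member passed the test at an adjusted p of 0.01, the threshold of the study. This was the edgeR fit with treatment as the only term, which does not pair gradients by pool. Of all genes, it called 12.7%, 7.88% higher and 4.81% lower. DESeq2 and a fit with the pool as a block called further members, given below beside their shares of all genes. The median log2 difference over the members was -0.19, beside 0.03 over all genes, with 4 members above 0 and 4 below. Groups that did not overlap were found for Apaf1, which was higher, beside 14.8% of all genes, and for Casp2 and Casp1, which were lower, beside 12.6%. In bulk cultures, fewer cells carrying an mRNA and less mRNA per cell cannot be told apart.

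Apaf1, the scaffold of the apoptosome, measured 6.91, 8.18, 5.66 and 7.21 CPM in the LPS gradients (in the order LUL15, LUL16, LUL17 and LUL18, used throughout). It measured 22.9, 23.9, 19.2 and 20.5 CPM in LPS+ET. The groups were far apart, and within pools the ratio of LPS+ET to LPS was 2.85 to 3.39. The log2 difference was 1.62 ± 0.25 (SE, edgeR, adjusted p = 0.000439), and it passed without any 1 gradient in 12 of 12 fits. With KU55933 ahead of etoposide, Apaf1 measured 17.5, 7.40, 11.8 and 16.9 CPM, below every LPS+ET gradient. The LUL16 gradient was the low one and lay among the LPS values, while the other 3 lay above all LPS gradients.

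In the comparison of LPS+ET+KU with LPS+ET, which asks what ATM inhibition did to damaged cells, Apaf1 was the only member whose groups did not overlap (4.74% of all genes were lower without overlap). Its log2 difference of -0.69 ± 0.24 did not pass the test (adjusted p = 0.166) and was -0.40 with equal weight per fraction. Within pools the ratio was 0.309 to 0.823. Within heavy polysomes alone the Apaf1 groups overlapped, at 12.7 to 27.6 CPM in LPS+ET+KU and 23.8 to 60.6 CPM in LPS+ET. The level over all fractions weights each fraction by the depth of its library, and the part of depth in this difference was not tested. Against LPS, the difference of LPS+ET+KU was 0.93 ± 0.25 (adjusted p = 0.0170). This last value passed with the pool as a block (adjusted p = 0.00604), with DESeq2 (0.00543) and without the LPS+ET+KU gradient LUL16 (log2 difference 1.13, adjusted p = 0.00129).

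Casp2, the initiator caspase of the PIDDosome, measured 79.5, 78.9, 84.8 and 88.2 CPM in LPS. The LPS+ET gradients gave 50.8, 39.9, 68.2 and 55.3 CPM, and those with KU55933 gave 63.9, 71.6, 92.7 and 78.7 CPM. The LPS+ET gradients all lay below the LPS gradients, and those of LPS+ET+KU overlapped both groups. The log2 difference of LPS+ET from LPS was -0.63 ± 0.18 (adjusted p = 0.0231), and it passed with the pool as a block (0.00164). The difference of LPS+ET+KU from LPS+ET was 0.52 ± 0.18 (adjusted p = 0.164), higher in 4 of 4 pools by a ratio of 1.26 to 1.79.

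Casp8, the initiator caspase of death receptors, varied widely between pools. Its LPS gradients measured 217, 280.0, 129 and 192 CPM, its LPS+ET gradients 149.9, 160.4, 118 and 139 CPM, and its LPS+ET+KU gradients 135, 162, 101 and 121 CPM. The 3 groups overlapped, but LUL17 was the lowest and LUL16 the highest in each of them. Within pools, LPS+ET was 0.573 to 0.920 times LPS and LPS+ET+KU was 0.578 to 0.781 times LPS, lower in 4 of 4 pools each time. The log2 differences from LPS were -0.53 ± 0.23 (adjusted p = 0.118) and -0.66 ± 0.23 (adjusted p = 0.0534). Both passed with the pool as a block, with adjusted p of 0.00935 and 0.00166. With equal weight per fraction both were -0.37 (limma, adjusted p = 0.351 and 0.346), and without the LPS gradient LUL16 the first was -0.35 (adjusted p = 0.344).

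Casp9, the initiator caspase that the apoptosome activates, measured 17.2, 16.9, 11.6 and 14.2 CPM in LPS, and 8.35, 12.7, 7.10 and 9.05 CPM in LPS+ET. The groups overlapped, although LPS+ET was lower in 4 of 4 pools. The log2 difference was -0.70 ± 0.37 (adjusted p = 0.198). In LPS+ET+KU it measured 7.14, 25.7, 7.54 and 10.8 CPM, and the high LUL16 gradient alone lay above every LPS gradient. Without it the log2 difference from LPS+ET went from 0.48 to -0.11.

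Casp6, an executioner caspase, measured 44.6, 39.7, 25.1 and 30.2 CPM in LPS. The LPS+ET gradients gave 54.3, 32.6, 31.02 and 37.3 CPM, and those with KU55933 gave 61.4, 79.9, 37.3 and 42.8 CPM. All 3 groups overlapped, and LPS+ET+KU exceeded LPS in 4 of 4 pools, by a ratio of 1.38 to 2.01. The log2 difference of LPS+ET+KU from LPS was 0.66 ± 0.27 (adjusted p = 0.0953) and passed with the pool as a block (0.00662). That of LPS+ET from LPS was 0.15 (adjusted p = 0.747) and went to 0.39 with equal weight per fraction and to -0.06 without the LPS+ET gradient LUL15.

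Casp1, the inflammatory caspase, measured 50.6, 55.1, 47.1 and 60.1 CPM in LPS. The LPS+ET gradients gave 36.6, 32.9, 34.2 and 40.7 CPM, and those with KU55933 gave 39.2, 41.3, 43.9 and 42.3 CPM. Both etoposide groups lay below every LPS gradient (12% of all genes were lower without overlap in LPS+ET+KU than in LPS). For LPS+ET against LPS the log2 difference of -0.56 ± 0.14 fell just short of the threshold (adjusted p = 0.0107). It passed with the pool as a block (0.00244), with DESeq2 (0.000159) and without the LPS+ET+KU gradient LUL16 (0.00933). For LPS+ET+KU against LPS the difference was -0.35 (adjusted p = 0.0830), and -0.12 with equal weight per fraction.

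Xiap, the IAP that binds and blocks active caspases directly, differed between pools. It measured 32.5, 21.6, 37.6 and 38.2 CPM in LPS. The LPS+ET gradients gave 35.7, 19.1, 50.2 and 46.7 CPM, and the LPS+ET+KU gradients gave 32.7, 21.9, 42.6 and 40.2 CPM. LUL16 was the lowest in each group. The groups overlapped, and its log2 differences were 0.23 (LPS+ET against LPS), -0.15 (LPS+ET+KU against LPS+ET) and 0.08 (LPS+ET+KU against LPS), none of which passed. Birc2, or cIAP1, a ubiquitin ligase of receptor signaling, measured 53.9, 50.0, 51.4 and 67.3 CPM in LPS and 51.7, 68.7, 70.5 and 62.8 CPM in LPS+ET. In LPS+ET+KU it measured 59.7, 64.6, 91.9 and 91.4 CPM, so the groups overlapped while 4 of 4 pools were above LPS. The log2 differences from LPS were 0.19 (adjusted p = 0.534) and 0.47 (adjusted p = 0.0903).

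No member passed the test for LPS+ET+KU against LPS+ET or against LPS with edgeR, where 0.455% and 10.7% of all genes were called. At an unadjusted p under 0.05 there were 2 and 5 members, beside 15.9% and 35.9% of all genes. DESeq2 called 0 and 1 of them, beside 3.24% and 18.2% of all genes, and the blocked fit called 0 and 3, beside 6.36% and 28.1%. For LPS+ET against LPS these fits called 3 (Apaf1, Casp2 and Casp1) and 4 (with Casp8), beside 18.4% and 26.7%. The median log2 differences of the members were 0.24 and -0.01, beside 0.04 and 0.09 over all genes. The 3 comparisons share gradients and are not independent of each other.

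**Figure D2:**
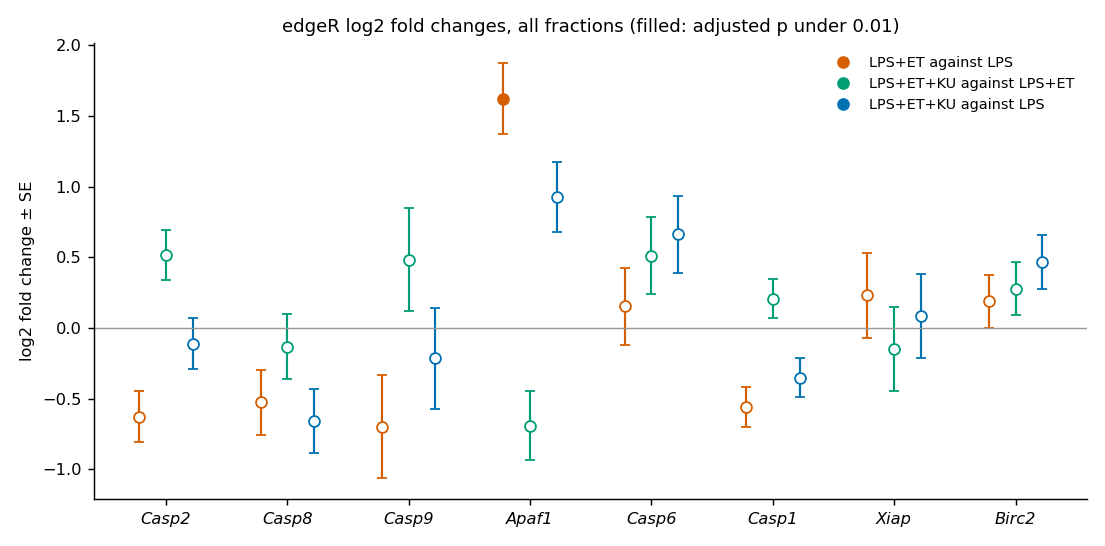
Log2 differences of the 8 mRNAs over fractions 4 to 16, with standard errors, for the 3 comparisons, and filled points where the adjusted p is under 0.01. The only filled point is Apaf1 in LPS+ET against LPS, at 1.62.

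The levels within each gradient class showed the same member standing out. In light polysomes Apaf1 measured 1.92, 3.45, 0.895 and 1.69 CPM in LPS, and 11.6, 9.87, 10.8 and 8.59 CPM in LPS+ET. The LPS values rest on few reads, with 7, 5 and 22 counts in fractions 8, 9 and 10 over 4 gradients. The groups did not overlap, and the log2 difference was 2.23 ± 0.37 (adjusted p = 0.000638). In heavy polysomes the difference was 1.74 ± 0.32 (adjusted p = 0.00171) and in monosomes 1.61 ± 0.43 (adjusted p = 0.0171). Counts in the LPS monosomes were also few, at 1, 11, 10 and 7 in fractions 4 to 7 over 4 gradients. The monosome value passed with the pool as a block (0.00432), with DESeq2 (0.00936) and without the LPS+ET+KU gradient LUL16 (0.00710). Whether these 3 differences differ from each other was not tested. Apaf1 was the only member called for LPS+ET against LPS in light and in heavy polysomes, and no member was called in monosomes, beside 10.6%, 9.69% and 9.52% of all genes.

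With the inhibitor, Apaf1 in light polysomes measured 10.1, 5.06, 6.23 and 5.78 CPM, above every LPS gradient. This was 1.63 ± 0.37 on the log2 scale above LPS (adjusted p = 0.00906), the only call among the members for LPS+ET+KU against LPS in any class, beside 5.96%, 7.13% and 7.95% of all genes in monosomes, light and heavy polysomes. It was lost without most single gradients, in 10 of 12 fits, with adjusted p up to 0.0322 (without the LPS gradient LUL15), and was kept without LUL16 of LPS or of LPS+ET+KU. No member was called for LPS+ET+KU against LPS+ET in any class, where 0.213%, 0.292% and 0.572% of all genes were.

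Casp8 had lower means in monosomes and light polysomes of both etoposide groups, without passing the test. In monosomes the LPS gradients gave 121, 148, 77.3 and 111 CPM, those of LPS+ET 89.9, 70.1, 67.3 and 71.3 CPM, and those of LPS+ET+KU 70.9, 66.9, 57.4 and 75.8 CPM. The LPS+ET+KU gradients all lay below those of LPS (8.7% of all genes were lower without overlap), and the LPS+ET gradients overlapped them. The log2 differences from LPS were -0.62 (adjusted p = 0.0438) and -0.76 (adjusted p = 0.0188) in monosomes, and -0.75 (0.0314) and -0.84 (0.0220) in light polysomes. All 4 passed with the pool as a block, with adjusted p of 0.00270, 0.000322, 0.00128 and 0.000483. Both LPS+ET+KU values passed with DESeq2 (0.00172 and 0.00472) and without the LPS gradient LUL17 (0.00811 and 0.00936). Other member values that passed only with the pool as a block were Casp6 in LPS+ET+KU against LPS in light polysomes (log2 difference 1.01, adjusted p = 0.000392) and monosomes (0.81, 0.00702), Birc2 there in monosomes (0.50, 0.00951) and Casp2 in LPS+ET against LPS in heavy polysomes (-0.77, 0.00656). Casp1 there passed with DESeq2 (log2 difference -0.63, adjusted p = 0.00429). With the block, 24.6%, 25% and 20.6% of all genes were called for LPS+ET against LPS in monosomes, light and heavy polysomes, and 23.2% and 24.1% for LPS+ET+KU against LPS in monosomes and light polysomes.

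Within the classes, more members had groups without overlap than were called. For LPS+ET against LPS, Apaf1 was above all LPS gradients in monosomes, light and heavy polysomes, beside 13.2%, 13.4% and 12.1% of all genes. In the same comparison Casp9 and Casp1 lay below in light polysomes (12.2% of all genes) and Casp2 and Casp1 in heavy polysomes (12.6%). For LPS+ET+KU against LPS, Casp8 lay below in monosomes and light polysomes (8.7% and 10.4%) and Casp1 in heavy polysomes (12%), and Apaf1 lay above in light and heavy polysomes (10.7% and 13.2%). For LPS+ET+KU against LPS+ET all members overlapped in each class.

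The place of each mRNA along the gradient was described by its CPM in single fractions, and by a mean fraction number, the average of fractions 4 to 16 weighted by CPM. In LPS, Apaf1 lay deepest, at a mean fraction of 12.4 ± 0.279 (SD, n = 4), beyond 92.3% of 8000 genes. Birc2 lay nearest the monosomes at 9.65 ± 0.139, beyond 18.9% of genes, and the median gene lay at 10.7. The other members were at 11.1 (Casp1), 10.9 (Casp8), 10.8 (Casp6), 10.7 (Xiap), 10.6 (Casp2) and 10.2 (Casp9), and neighbours in that order did not differ beyond their spread. The Casp9 mean has an SD of 1.17 and includes the LUL17 gradient at 8.45, which rests on few reads. With each fraction scaled to the same total, heavy polysomes held 82.3% ± 7.34 (SD, n = 4) of Apaf1 and 40.3% ± 1.98 of Birc2, where the median gene had 55.2%.

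**Figure D3:**
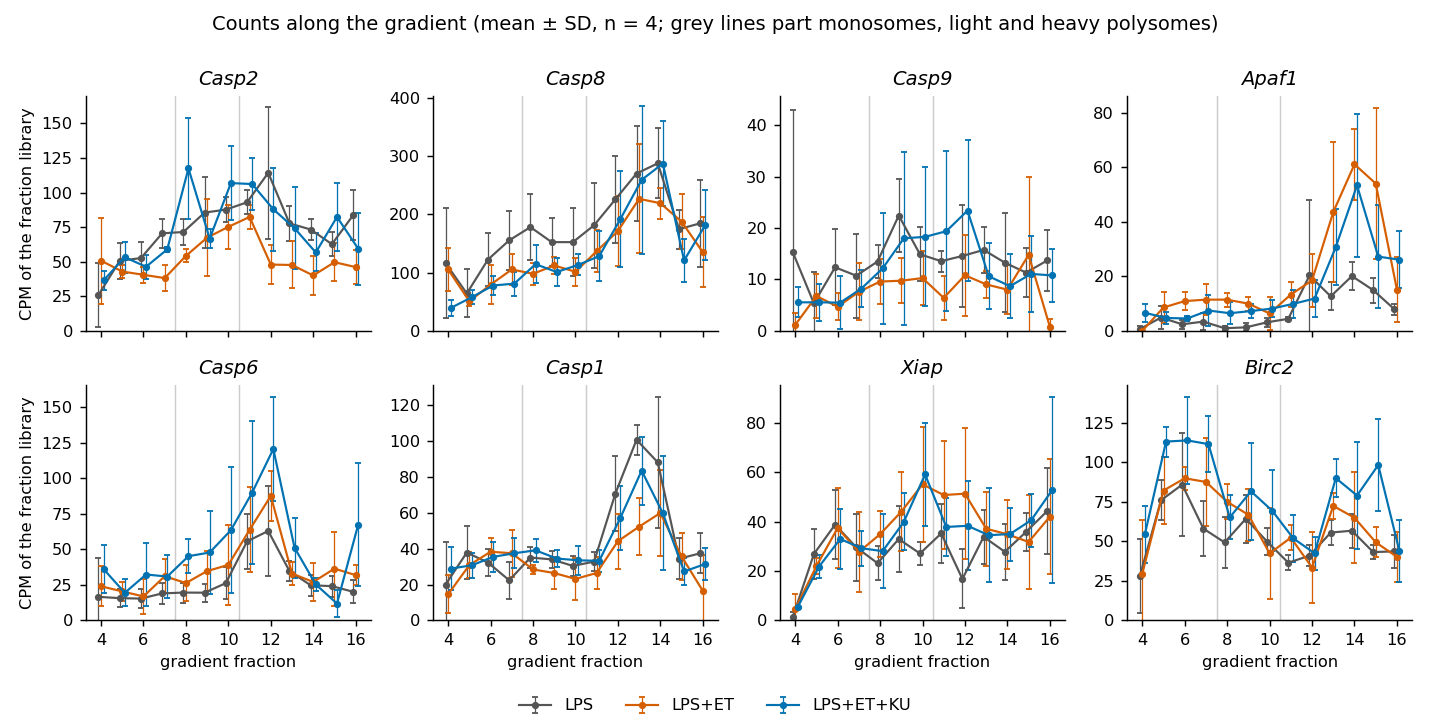
CPM of the 8 mRNAs in fractions 4 to 16, as means of 4 gradients with SD, 1 line per treatment. Apaf1 climbs towards fractions 13 to 15 and is highest in LPS+ET, Birc2 has its highest mean in fraction 6 in all 3 treatments, close to its neighbours, and Casp6 peaks in fraction 12.

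Single fractions showed where reads of each mRNA gathered. In fraction 14 Apaf1 reached 20.1 ± 5.05 CPM in LPS, with LPS+ET at 61.2 ± 13.1 CPM and LPS+ET+KU at 53.4 ± 26.3 CPM. Its LPS mean was about as high in fraction 12, at 20.3 ± 27.9 CPM, but there the gradients ran from 4.38 to 61.9 CPM. Casp8 peaked in fraction 14 in LPS (287 CPM) and LPS+ET+KU (287 CPM) and in fraction 13 in LPS+ET (226 CPM). Casp1 peaked in fraction 13 in LPS, at 100.8 ± 8.25 CPM, while LPS+ET stood at 52.3 ± 15.8 CPM there and LPS+ET+KU at 83.6 ± 19.04 CPM. Casp6 had its highest value in fraction 12 in all treatments, at 63.0, 87.6 and 121 CPM. Birc2, in contrast to the deep peaks of Casp8, Casp1 and Apaf1, had its highest mean in fraction 6 throughout, at 85.8, 89.8 and 114 CPM. Its neighbouring fractions were close, with fractions 5 and 7 of LPS+ET+KU at 113 and 111 CPM. Birc2 was also high in deep fractions, at 98.2 CPM in fraction 15 of LPS+ET+KU and 72.3 CPM in fraction 13 of LPS+ET. Casp2 had its highest mean in fraction 12 in LPS (114 ± 47.9 CPM), 11 in LPS+ET (82.3 ± 8.68 CPM) and 8 in LPS+ET+KU (117 ± 36.5 CPM). The gradients ran from 84.0 to 186 CPM in the first of these and from 91.6 to 170 CPM in the last. Fraction 11 of LPS was at 92.9 ± 8.65 CPM, and fractions 10 and 11 of LPS+ET+KU were at 107 and 106 CPM. These highest means are therefore not read as a move along the gradient. In LPS, Xiap was at 1.19 CPM in fraction 4 and between 16.8 and 44.3 CPM in the others, and Casp9 lay between 5.35 and 22.4 CPM, with at most 143 counts in any LPS fraction over 4 gradients.

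The polysome profile was tested on single-fraction libraries, with fraction, treatment and their interaction against fraction alone, which asks whether a gene differs in any fraction. For LPS+ET against LPS, 4 members were called: Apaf1 (adjusted p = 3.05e-12), Casp2 (1.10e-05), Casp9 (0.000752) and Casp8 (0.00203), beside 31% of all genes. Apaf1 and Casp2 passed without any 1 of the 8 gradients and were the 2 that DESeq2 also called. Casp9 did not pass without the LPS+ET gradients LUL17 (0.0127) or LUL18 (0.0269), and Casp8 did not without LUL15 (0.0408) or LUL16 (0.0832) of LPS, or LUL17 (0.0330) or LUL18 (0.0269) of LPS+ET. For LPS+ET+KU against LPS, 4 members were called beside 32.7% of all genes: Apaf1 (5.03e-05), Casp6 (0.000402), Casp8 (0.00304) and Birc2 (0.00944). Apaf1 again passed in 8 of 8 such fits. Casp8 was lost without LUL15 (0.0678) or LUL16 (0.0408) of LPS or LUL17 (0.0103) of LPS+ET+KU, Casp6 without LUL16 (0.0133) or LUL18 (0.0250) of LPS or LUL16 (0.0292) of LPS+ET+KU, and Birc2 without 6 of 8 gradients (up to 0.144 without the LPS gradient LUL15; also without LUL16 and LUL17 of LPS and LUL16, LUL17 and LUL18 of LPS+ET+KU). Casp9 and Casp2 passed without LUL16 (0.00473) and LUL17 (0.00728) of LPS+ET+KU, respectively.

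No member was called for the profile of LPS+ET+KU against LPS+ET, beside 8.01% of all genes, and 3 had an unadjusted p under 0.05, beside 23.9%. Casp2 came closest (adjusted p = 0.0284) and passed with the pool as a block (0.00058, beside 18.3% of all genes), with DESeq2 (0.00206, beside 10.2%) and without the LPS+ET gradient LUL17 (0.00854), and Casp6 passed without the LPS+ET+KU gradient LUL17 (0.00158). This profile test counts a change of level as well as of place. The interaction of fraction and treatment alone, which asks only about place, called 0 of the 8 members in any of the 3 comparisons, beside 1.37%, 1.05% and 3.29% of all genes. The same was so with a term per gradient, beside 5.72%, 3.63% and 11%. The test treats the 13 libraries of a gradient as independent, which they are not.

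**Figure D4:**
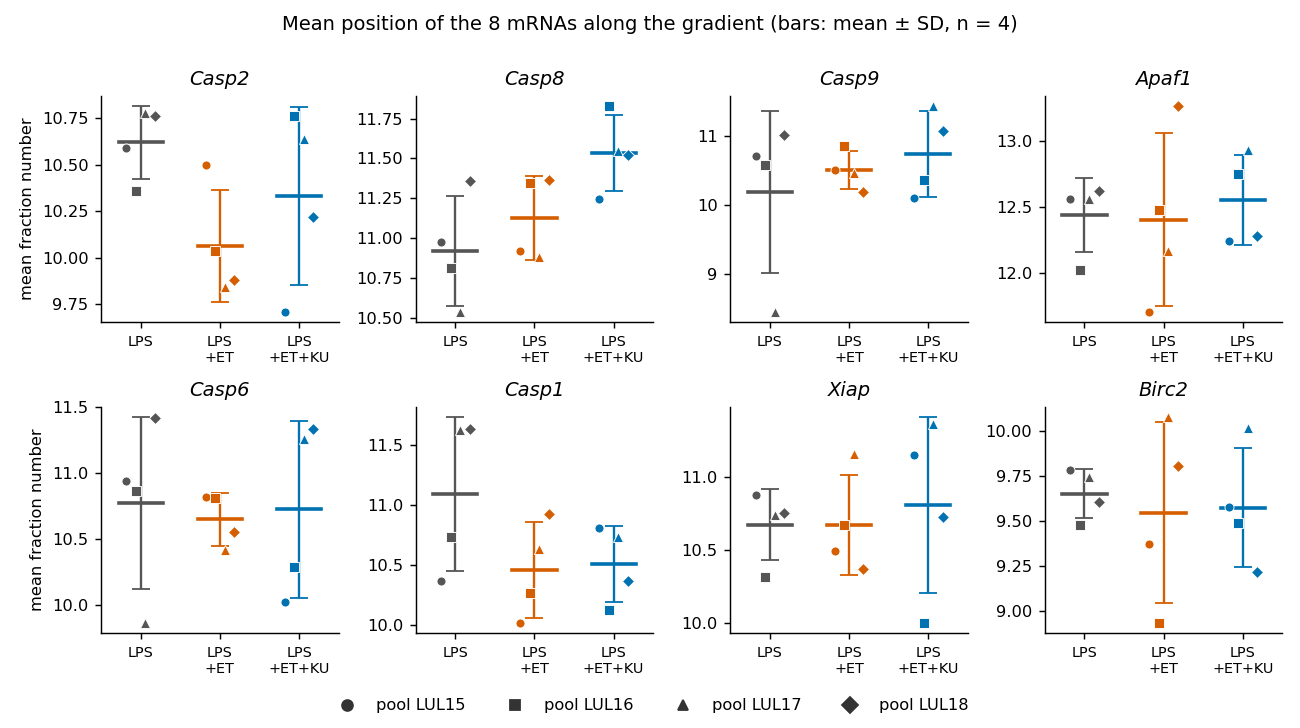
Mean fraction number of the 8 mRNAs (4 to 16, weighted by CPM), 1 point per gradient with a shape per pool, 4 gradients per treatment, with bars for the mean and SD and a vertical scale per gene that does not start at 0. Apaf1 lies deepest, between 11.7 and 13.3 in all gradients, and Birc2 nearest the monosomes, between 8.93 and 10.1.

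No member's position along the gradient passed a test. The mean fraction of Apaf1 was 12.6, 12.0, 12.6 and 12.6 in LPS, 11.7, 12.5, 12.2 and 13.3 in LPS+ET and 12.2, 12.7, 12.9 and 12.3 in LPS+ET+KU. The groups overlapped, and the difference of LPS+ET from LPS was -0.04 ± 0.32 fractions (SE). The 1 shift with an unadjusted p under 0.05 was that of Casp8, from 11.0, 10.8, 10.5 and 11.4 in LPS to 11.2, 11.8, 11.5 and 11.5 in LPS+ET+KU, a difference of 0.62 ± 0.24 fractions with overlapping groups, upward in 4 of 4 pools by 0.16 to 1.02. Fitted across all genes with limma, its adjusted p was 0.182. The scaled share of Casp8 in heavy polysomes was 57.0% to 62.0% in LPS and 63.4% to 72.1% in LPS+ET+KU, without overlap, beside 6.78% of 7999 genes that were higher in this way, and that of Casp2 was lower without overlap in LPS+ET than in LPS, beside 8.65%. Neither passed the test on the scaled share (limma, adjusted p = 0.203 and 0.300). Casp2 in LPS+ET was -0.56 ± 0.26 fractions from LPS (adjusted p = 0.289) and Casp1 -0.63 ± 0.33 (adjusted p = 0.332). No member passed in any comparison by limma, beside 0.15%, 0% and 0.375% of 7999 genes. The members with an unadjusted p under 0.05 numbered 0, 0 and 1, beside 17.9%, 8.00% and 18.7% of genes.

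The share of deposited counts in heavy polysomes (RiboLoad) likewise called 0 members and 0% of 8000 genes in each comparison by limma, and 0 members had an unadjusted p under 0.05, beside 177, 252 and 737 genes. The standard errors of the members were 0.46 to 0.71 on the log2 scale of heavy over other counts. In the LPS+ET gradient LUL16 this share was 23.1% for Casp2, 30.9% for Casp9 and 26.2% for Xiap, and the other LPS+ET gradients were at 61.9% to 66.5%, 67.3% to 74.2% and 62.6% to 68.9%. The heavy share of all counts in that gradient was low as well (30.4%).

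The wider cell death machinery was described with a list of 37 genes around the members. Of these, 34 were matched to the table, 27 were tested and 7 were too low. For LPS+ET against LPS, 2 genes were higher and 2 lower, 4 of 27, beside 7.88% and 4.81% of all genes. The median log2 difference over the list was -0.13, beside 0.03 over all genes. Pidd1 (Lrdd in the table), a subunit of the PIDDosome, measured 7.87 to 13.2 CPM in LPS and 56.2 to 78.4 CPM in LPS+ET. Its log2 difference was 2.70 ± 0.27 (adjusted p = 1.61e-05). Its partner Cradd, at -0.06, did not pass. Dffb, the nuclease that cuts DNA when caspases free it from its inhibitor, measured 14.0 to 17.2 CPM in LPS and 31.9 to 147 CPM in LPS+ET, with LUL16 the low gradient. Its difference was 2.80 ± 0.45 (adjusted p = 0.000606), whereas that inhibitor, Dffa, was at 0.22 and did not pass.

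Pycard, the adaptor through which inflammasomes bind caspase-1, fell by 0.95 ± 0.23 on the log2 scale from LPS to LPS+ET (adjusted p = 0.00918), the group means going from 87.5 ± 11.3 to 45.2 ± 9.91 CPM (SD, n = 4). Htra2, a mitochondrial protease that antagonizes IAPs, fell by 0.95 ± 0.23 (adjusted p = 0.00999), from 377 ± 63.8 to 195 ± 67.3 CPM. Both calls sat at the threshold without the block and passed more clearly with it (adjusted p of 0.000250 and 4.03e-05). Without the block each held in 2 of 12 fits that left out 1 gradient, with adjusted p up to 0.0314 for Pycard (without the LPS+ET gradient LUL15) and 0.0375 for Htra2 (without the LPS+ET gradient LUL18).

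By group, 1 of 2 PIDDosome genes and 1 of 6 substrates and nucleases were higher in LPS+ET than in LPS. Of the others, 1 of 4 IAP antagonists and 1 of 3 inflammasome genes were lower. None of the 2 apoptosome partners (Cycs and Aven), the 3 further IAPs, the 6 death receptor complex genes or the 1 inflammatory caspase tested was called by the edgeR fit without the block. With the pool as a block, Birc6, a giant IAP (log2 difference -0.86, adjusted p = 0.00380) and Cflar, which binds caspase-8 in death receptor complexes (-0.80, 0.000278), passed as lower. Aim2, of the inflammasome genes, passed as higher with the block (0.60, 0.00548), and its adjusted p without the block was 0.0140. Birc3 (cIAP2), the closest relative of Birc2, measured 44.2 ± 4.56 CPM in LPS and 31.7 ± 3.22 CPM in LPS+ET (adjusted p = 0.0298), and passed with the pool as a block (0.00981).

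**Figure D5:**
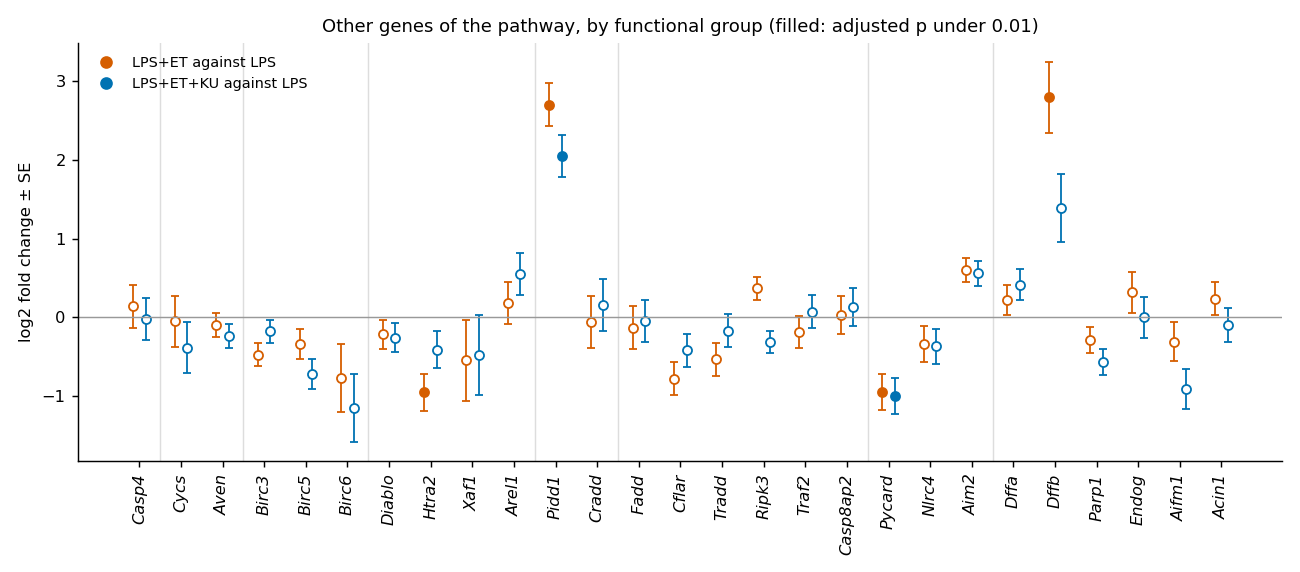
Log2 differences, with SE, of the 27 tested genes of the wider cell death list, grouped by role, for LPS+ET and for LPS+ET+KU against LPS, with filled points where the adjusted p is under 0.01. Dffb and Pidd1 lie highest in LPS+ET against LPS, at 2.80 and 2.70.

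With KU55933 the list had 0 calls against LPS+ET, beside 0.455% of all genes, and 2 of 27 against LPS, beside 10.7%. Against LPS+ET, 5 of 27 had an unadjusted p under 0.05, beside 15.9% of all genes. The median log2 differences were -0.04 and -0.18. Pidd1 measured 24.4 to 60.4 CPM in LPS+ET+KU and remained above LPS by 2.05 ± 0.27 (adjusted p = 0.000204). Pycard was at 43.8 ± 12.4 CPM there and fell by 1.00 ± 0.23 from LPS (adjusted p = 0.00800), a call held in 4 of 12 fits without 1 gradient (adjusted p up to 0.0262, without the LPS gradient LUL18). Dffb measured 15.4 to 58.4 CPM. With the pool as a block, LPS+ET+KU was lower than LPS+ET for Dffb (adjusted p = 0.00615), Ripk3 (0.00454) and Aifm1 (0.00623), and higher for Htra2 (0.00878). These were 4 calls of 27 in place of 0, beside 6.36% of all genes. Against LPS the block gave 3 higher and 5 lower of 27 in place of 1 and 1, beside 28.1% of all genes in either direction. For LPS+ET against LPS it gave 3 and 5 in place of 2 and 2, beside 26.7%.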

How the data were processed

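Per the submitters' notes and the methods of the study, the authors sequenced polyadenylated 3′ ends of each gradient fraction, removed PCR duplicates by random bases, trimmed A tracts, aligned reads with TopHat2 2.0.12 to GRCm38 (mm10) and summed reads per gene over selected poly(A) sites. HTSeq and DESeq2 1.6.3 are also named there. The deposited values are counts, not normalized. Of 157 columns, 79 matched a single sample and 78 a treatment and fraction only. The fraction 17 library (777 counts, 0 for each member) entered no comparison. Site positions were read as counted from 0, and 1 was added.

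The members, lists and tests were chosen with earlier results of these data known. Counts were summed over the fractions of each gradient and tested with edgeR 4.0.16 (TMM, default filter, quasi-likelihood test on 12 gradients, treatment as the only term, two-sided, Benjamini-Hochberg adjustment over all genes, threshold 0.01). The polysome profile was tested with edgeR on 104 libraries per comparison. Mean fraction and RiboLoad (log2 of heavy over other counts, with 0.5 added to each) were tested with limma 3.58.1 on genes averaging at least 100 counts a gradient. Where p-values rest on gradients, the labels do not say which animals or days they came from; the study states biological replicates. Same-pool gradients deviated from their group means together (r of 0.305 to 0.799 in 12 of 12 pairs, across genes). For different pools r was -0.628 to 0.284. The pools, inferred from tags in the column names, were therefore taken to pair the gradients. Alternatives were DESeq2 1.42.0, RLE size factors, no filter, the pool as a block, only the groups compared, equal weight per fraction (limma on log2 CPM with a pseudocount of 0.5) and leaving out each gradient. Named genes were the members, list genes called over all fractions, and 2 genes most alike each member by Pearson r, with Cdkn1a and Trp53 as a check. Cradd, Dffa, Birc3, Birc6, Cflar, Aim2, Ripk3 and Aifm1, and the markers Cd14, Fcgr3 and Cd22, were named after their values were seen. 2 genes of the cell death list are not reported here. The scripts were tested on simulated data. R 4.3.3, Python 3.11.15, numpy 2.4.6 and pandas 2.3.3 were used.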

Additional observations from a re-analysis of the deposited data

Results flagged for a closer look

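Of 96 groups of 4 gradients checked for a value far from the other 3, 5 held one, where chance gives about 1 in 20. Of these, 3 were heavy polysome shares of deposited counts in the LPS+ET gradient LUL16: Casp2 at 23.1% (the others 61.9% to 66.5%), Casp9 at 30.9% (67.3% to 74.2%) and Xiap at 26.2% (62.6% to 68.9%). The remaining pair were mean fraction numbers in LPS. Casp9 in LUL17 was at 8.45 (the others 10.6 to 11.0), and Apaf1 in LUL16 was at 12.0 (the others 12.6 in each). The Casp9 value rests on few reads. Fraction 4 of LPS held 3 Casp9 counts over 4 gradients, with a highest value of 56.7 CPM. The smallest library of the LPS gradient LUL17 held 17629 counts, so a single read weighs heavily in it.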

How the results depend on the processing

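Calls below count the 8 members at an adjusted p under 0.01. Of all genes, the block called 20.6% to 28.1% in the level comparisons with LPS named here, and DESeq2 18.4% and 18.2% over all fractions. No share of all genes is given for RLE size factors, no filter, only the 8 gradients or single gradients left out. The same holds for DESeq2 within classes and on the profile of LPS+ET against LPS. Those counts are not read as results about the members. For LPS+ET against LPS over all fractions there was 1, against 3 with DESeq2, 2 with RLE size factors, 4 with the pool as a replicate block and 1 to 2 without single gradients. For LPS+ET+KU against LPS there were 0, against 1 with DESeq2, 3 with the block and 0 to 1 without single gradients. In monosomes 0 became 1 (DESeq2), 2 (block), 1 (only the 8 gradients compared) and 0 to 1 (single gradients left out) for LPS+ET against LPS, and 1 (DESeq2), 3 (block) and 0 to 1 for LPS+ET+KU against LPS. In light polysomes 1 became 2 with the block for LPS+ET against LPS. For LPS+ET+KU against LPS there it became 2 (DESeq2), 0 (no filter), 0 (only the 8 gradients), 3 (block) and 0 to 1. In heavy polysomes LPS+ET against LPS went from 1 to 2 with DESeq2 and 2 with the block. The profile calls of LPS+ET against LPS went from 4 to 0 for the interaction, 0 with a gradient term, 2 with DESeq2 and 2 to 4 without single gradients. Those of LPS+ET+KU against LPS+ET went from 0 to 1 (block), 1 (DESeq2) and 0 to 1, and those of LPS+ET+KU against LPS from 4 to 0 (interaction), 0 (gradient term) and 1 to 4. The replicate block changed no other count of member calls by over 1.5 times.

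Among 648 alternatives for 36 single-gene log2 differences over all fractions, 585 kept direction and side of the threshold, 18 came to pass, 35 no longer passed and 10 turned direction, all 10 on leaving out a gradient. The ranges without single gradients were -0.058 to 0.28 for Casp6 (LPS+ET against LPS), -0.11 to 0.69 for Casp9, -0.36 to 0.024 for Xiap and -0.16 to 0.15 for Pycard (LPS+ET+KU against LPS+ET), and -0.079 to 0.25 for Xiap (LPS+ET+KU against LPS). The causes were not tested. Depth limits Apaf1 and Casp9 most, with 2044 and 2084 counts over 12 gradients.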

Other observations

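The mRNAs whose level over the 12 gradients was most like that of each member, by Pearson r of log2 CPM among 7999 genes, are given as a description, since the gradients share treatments, pools and depth. For Apaf1 they were Parp10 (r = 0.983) and Gtse1 (0.967). For Casp2 they were Pgam5 (0.952) and Herpud1 (0.940), for Casp8 Mtrr (0.981) and Rnaseh2b (0.972), and for Casp9 H2-DMb2 (0.962) and Dtnbp1 (0.956). Casp6 was most like Ssx2ip (0.949) and Rragc (0.935), and Casp1 most like Cnn2 (0.948) and Rsrc1 (0.942). Of the IAPs, Xiap was nearest to Thap1 (0.970) and Zfp160 (0.955), and Birc2 to Dvl1 (0.910) and Cep97 (0.898). Among the members themselves, Apaf1 ran against Casp1 (r = -0.803) and Casp2 (-0.754), and Casp1 with Casp2 (0.743).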
